A study of Danio rerio with 2 samples.

Results

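Broad open regions shared by a pair of zebrafish melanoma cell lines, zcrest 1 and zcrest 2, were described from ATAC-seq peak lists. In this assay a transposase cuts and tags DNA that is not protected by nucleosomes or other proteins, and a peak caller marks the stretches where the tagged reads pile up. A broad pair was a region of zcrest 1 and a region of zcrest 2 that overlapped by at least 1 bp, that overlapped no other region of the opposite list, and that were both at least 1000 bp wide. On the 25 numbered chromosomes 539 of 32455 regions matched 1 to 1 were broad pairs, or 1.66% (95% exact binomial interval 1.52% to 1.81%). They are compared with 31000 narrow pairs, in which both regions were under 1000 bp wide. The remaining 916 pairs had a region of at least 1000 bp in a single line.

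Both lines were melanoma lines of more than 20 passages with the same listed genotype: p53, BRAF and Na alterations, the reporter crestin:EGFP, and MiniCoopR alone. The abbreviation Na is not expanded in the labels. In zebrafish embryos crestin is switched on in the neural crest, from which pigment cells descend. The MiniCoopR vector carries mitfa, the master regulator of melanocytes. One ATAC-seq library of 50000 cells was made from each line, so no value has a replicate error, no test across samples was possible, and every comparison is between 2 libraries. Binomial intervals cover counting error only, and neighbouring regions are not independent. Coordinates refer to Zv9, a build of the zebrafish genome. Genes and sequences at the regions were not analysed here.

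In chromatin, DNA is wrapped around nucleosomes, and promoters and enhancers are accessible where nucleosomes are displaced or loosely bound. A typical accessible site is about as long as a nucleosome and its linkers, so a region that stays accessible over a far greater length spans several nucleosome positions. Long accessible stretches are known from promoters of highly transcribed genes and from groups of closely spaced enhancers in vertebrate cells. Which of these the regions here are was not analysed.

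The lists held 63332 regions of zcrest 1 and 53129 regions of zcrest 2 on the numbered chromosomes, with median widths of 397 and 387 bp. The genome-wide background was 1.57 overlapping reads in zcrest 1 and 2.01 in zcrest 2, a value that grows with sequencing depth. Widths, fold enrichments and -log10 q are the authors' values, and the number of reads over a summit, the highest point of a region, was solved from the authors' -log10 p together with the enrichment. Width moves with depth and with signal, and all of these measures come from the same reads. The members were chosen by width, a measured value, so widths and strengths are given as descriptions.

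Regions of at least 1000 bp were rare in both lists, and fewer than 50% of them were broad pairs. In zcrest 1, 1254 regions (1.98%) reached this width, and in zcrest 2, 1400 did (2.64%). Of those of zcrest 1, 539 (43.0%) were members, 397 (31.7%) were matched to a narrower region of zcrest 2, and 200 (15.9%) took part in overlaps that were not 1 to 1, mostly because they overlapped 2 or more regions of zcrest 2 (185). The remaining 118 (9.41%) overlapped no region of zcrest 2. Of the wide regions of zcrest 2, 539 (38.5%) were members, 519 (37.1%) were matched to a narrower region of zcrest 1, 286 (20.4%) were not matched 1 to 1, and 56 (4.0%) overlapped no region of zcrest 1. Many of the narrower partners were close to the limit: their median width was 772 bp where the wide region was in zcrest 1, and 818 bp where it was in zcrest 2. At least 800 bp was reached by 178 of 397 (44.8%) and by 278 of 519 (53.6%) of these partners.

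The regions nearest to the limit on either side had overlapping ranges of signal. Exactly 1000 bp was the narrower width of 6 members, and the 5 of them that come first by chromosome lay on chromosomes 1, 9, 13, 19 and 20. Their summits held 24 to 65 reads in zcrest 1 and 36 to 61 in zcrest 2. The 5 pairs just outside had a narrower width of 997 to 999 bp and lay on chromosomes 2, 6, 9 and 21. Their summits held 33 to 77 reads in zcrest 1 and 30 to 61 in zcrest 2.

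Members were nearly as wide in one line as in the other and had nearly the same edges. The median width of the members was 1152 bp in zcrest 1, with 1161 bp in zcrest 2, and 46.0% of the members (248) had a narrower width under 1100 bp. The wider region was a median of 1.05 times as wide as the narrower, against 1.24 times in narrow pairs. The overlap covered a median of 93.5% of the joint length in broad pairs (quartiles 86.8% and 96.7%) and 74.5% in narrow pairs (57.6% and 87.9%). The starts differed by a median of 30 bp and the ends by 26 bp in broad pairs, against 47 bp for each edge in narrow pairs. Both edges lay within 50 bp of each other in 231 of 539 broad pairs (42.9%, interval 38.6% to 47.2%), against 28.8% of narrow pairs (28.3% to 29.3%), and in 28.3% of all 32455 pairs. Neither line was the wider more often by a clear margin: zcrest 1 was wider in 257 members and zcrest 2 in 280. The Spearman correlation of the widths was 0.62 over the 539 members, which share both libraries. Requiring a large width in both lists keeps the widths close by itself, so these values describe the members and test nothing.

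**Figure D1:**
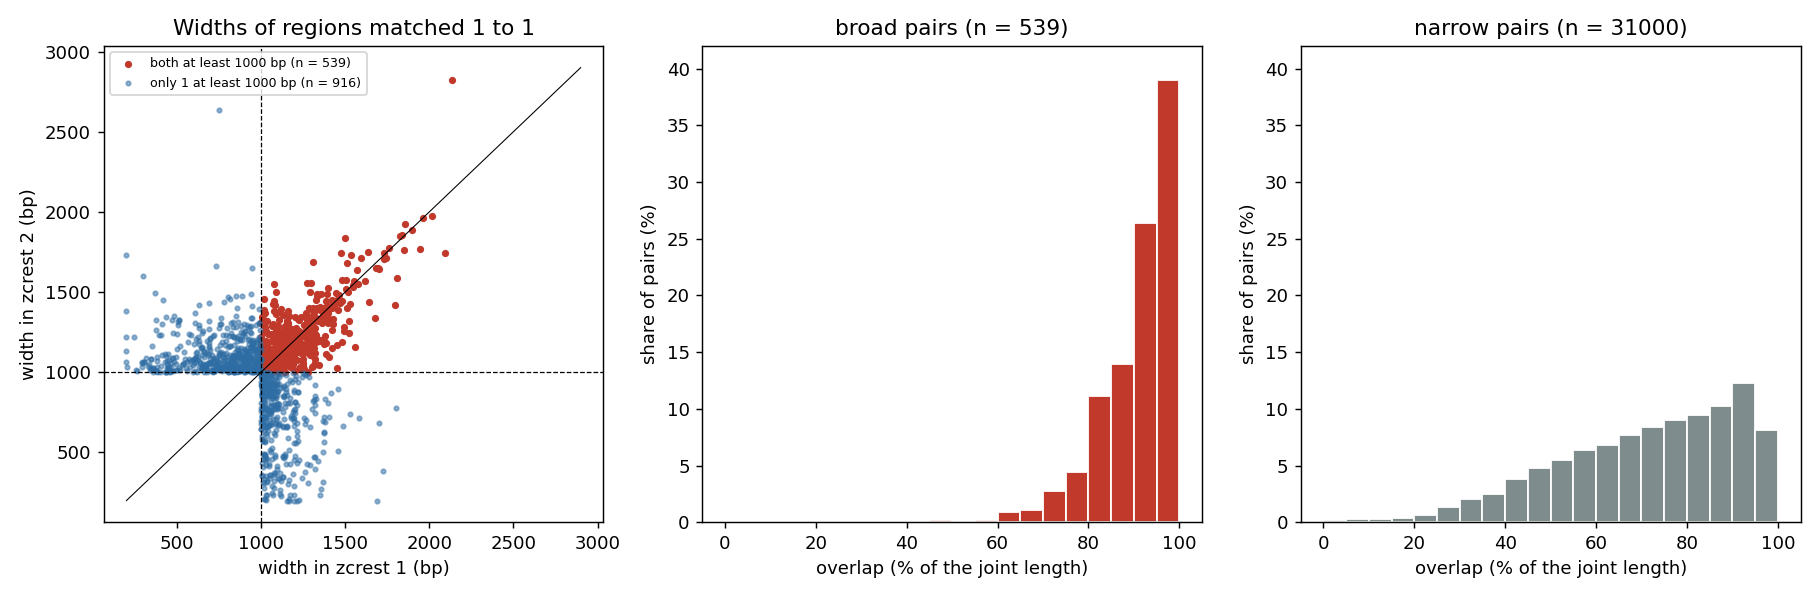
The left panel plots the width (bp) of each matched region in zcrest 1 and zcrest 2 for pairs in which at least 1 region reached 1000 bp, with the dashed lines at that limit and the diagonal marking equal widths; the other panels give the share of pairs (%) by overlap as a percentage of the joint length, for broad and narrow pairs. The broad pairs follow the diagonal with a median overlap of 93.5%, and the narrow pairs spread over a wide range around a median of 74.5%.

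By the narrower of their widths, the 5 widest members lay on chromosomes 7, 16, 23 and 10. The widest was on chromosome 7, at 64249130 to 64251265 in zcrest 1 (2136 bp) and at 64248455 to 64251275 in zcrest 2 (2821 bp). Its end was nearly the same in both lines, and its start lay further out in zcrest 2. The next 4 were far closer in width: 2016 bp in zcrest 1 and 1974 bp in zcrest 2 on chromosome 7 at 59893411 to 59895426, 1965 and 1959 bp for the member on chromosome 16 at 16638631 to 16640595, 1896 and 1886 bp for one on chromosome 23 at 7821434 to 7823329, and 1856 and 1922 bp for one on chromosome 10 at 12048023 to 12049878. The coordinates are those of zcrest 1. By the width in zcrest 1 alone the order differs, since a member on chromosome 4 at 46715729 to 46717819 had 2091 bp there and 1743 bp in zcrest 2. Among the 4 members after the widest the overlap was 94.9% to 98.5% of the joint length. The widest region of zcrest 1 was 4268 bp and that of zcrest 2 was 2993 bp, and both lay outside the 1-to-1 pairs.

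The wider region of a member was at most 1.44 times as wide as the narrower, and the rule leaves out pairs that were narrow in 1 line. The member with the largest width in zcrest 1 relative to zcrest 2 was on chromosome 19 at 11017940 to 11019392, with 1453 bp against 1026 bp (ratio 1.42), and its summit held 127 reads in zcrest 1 and 46 in zcrest 2. Next in that direction were members on chromosome 19 at 14828478 (1561 bp in zcrest 1 and 1160 bp in zcrest 2) and on chromosome 7 at 66048112 (1346 and 1046 bp). The member widest in zcrest 2 relative to zcrest 1 was on chromosome 13 at 13805590 to 13806666, with 1077 bp in zcrest 1 and 1553 bp in zcrest 2 (ratio 0.694). It was followed by members on chromosome 10 at 17370844 (1015 and 1455 bp) and on chromosome 11 at 16536598 (1089 and 1501 bp). Over all members the ratio of widths and the ratio of summit reads between the lines had a Spearman correlation of 0.34, against 0.56 in narrow pairs.

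Broad pairs carried more signal than narrow pairs in both lines. The median summit held 55 reads in zcrest 1 and 56 in zcrest 2 in broad pairs, against 23 and 23 in narrow pairs. The lowest member summit of zcrest 1 held 12 reads and the lowest of zcrest 2 held 17. The highest held 299 reads in zcrest 1 and 340 in zcrest 2. The lowest and the highest were different members in each line. A -log10 q of at least 10 in both lists was reached by 513 of 539 broad pairs (95.2%, interval 93.0% to 96.8%), against 42.9% of narrow pairs (42.4% to 43.5%). Fold enrichment over the local background differed less between the classes, at a median of 8.76 in zcrest 1 and 7.94 in zcrest 2 for broad pairs, and 6.88 and 5.92 for narrow pairs. Within the members the Spearman correlation of width and summit reads was 0.28 in zcrest 1 and 0.21 in zcrest 2. Narrow pairs had 0.61 and 0.62. The members were cut off by width and crowd near the limit, so a lower correlation is partly built in. Whether width and signal are less related in broad regions was not tested. The 248 members with a narrower width under 1100 bp had median summits of 48.5 reads in zcrest 1 and 56 in zcrest 2, and the 30 members of at least 1500 bp had 92 and 86. The fold enrichment ran the other way, with medians of 9.08 and 8.26 in the narrower members and 6.76 and 6.35 in the widest.

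The local background used by the peak caller gives the number of reads in a window of 10000 bp around the summit, the region's own reads included. This number was a median of 246 in zcrest 1 and 289 in zcrest 2 around broad pairs, against 120 and 149 around narrow pairs. Broad pairs almost never lay at the genome-wide minimum, with 0 of 539 there in zcrest 1 (3 counts of the total, the limit used for a count of 0, are 0.557%, and the exact interval reaches 0.682%) and 1 in zcrest 2, where 19.9% and 20.6% of narrow pairs did. A wider region adds more reads of its own to the window, so the gap between the classes is partly built into the choice by width. Part of this gap also goes with the stronger summits. Classes of summit reads, used next, do not match the pairs by width. Among pairs with a mean of 40 to 60 summit reads the window held 224.5 and 265 reads around 182 broad pairs, against 183 and 216 around 4190 narrow pairs. The gap was smaller there, in the same direction in both lines, as it was in the other classes from 20 to 120 reads. From 120 reads up it ran the other way, with 1611 reads in zcrest 1 and 1850 in zcrest 2 around 43 broad pairs, against 1873.5 and 2285.5 around 122 narrow pairs.

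The strongest members were taken as the 5 with the best rank by -log10 q in the weaker of their lines. They ranked between 2 and 19 in every case, and a high rank in both lists is built into this choice. The first, on chromosome 20 at 6555446 to 6557178, had 279 summit reads in zcrest 1 and 287 in zcrest 2, ranked 5 and 8, and had its summit at the same base in both lines. The second, on chromosome 15 at 45149324 to 45150416, had 185 and 266 summit reads, and its summits lay 1 bp apart. Both next members lay on chromosome 24, at 11726450 to 11727917 with 223 and 254 summit reads and at 11736675 to 11738042 with 270 and 307. The fifth was on chromosome 16 at 28154472 to 28156019, with 219 summit reads in zcrest 1 and 216 in zcrest 2. It started at the same base in both lists, and its overlap of 99.7% of the joint length was the highest of all members.

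A minority of the members lay in windows of very dense reads. In 37 members (6.86%, interval 4.88% to 9.34%) the window held at least 1000 reads in both lines, against 227 narrow pairs (0.732%). These 37 had high summits, with medians of 169 reads in zcrest 1 and 196 in zcrest 2, but lower fold enrichment than the other 502 members, with medians of 4.62 and 3.93 against 8.99 and 8.14. The densest was the member on chromosome 16 at 16638631 to 16640595, with 4633 reads in zcrest 1 and 5545 in zcrest 2 in the window and a fold enrichment of only 2.52 and 2.31. Between the lines their summit reads were close, with log2 ratios of zcrest 1 over zcrest 2, centred on the median of all pairs, between -0.59 and 0.26. Requiring a dense window in both lines leaves out members that were dense in a single line, so this closeness is partly built in. They were spread over 17 chromosomes. Of the 37, 15 lay in 500-kb windows of raised background (a limit of 3 times the median), against 8 of the other 502. The 37 were chosen by their local background, so this contrast and their lower fold enrichment are partly built in. Of the 5 strongest members, all but the one on chromosome 15 were among these 37. Among narrow pairs with at least 120 summit reads on average, 82.0% of 122 lay in such dense windows, and among broad pairs 69.8% of 43 did, so at this signal a dense window was usual for both classes.

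**Figure D2:**
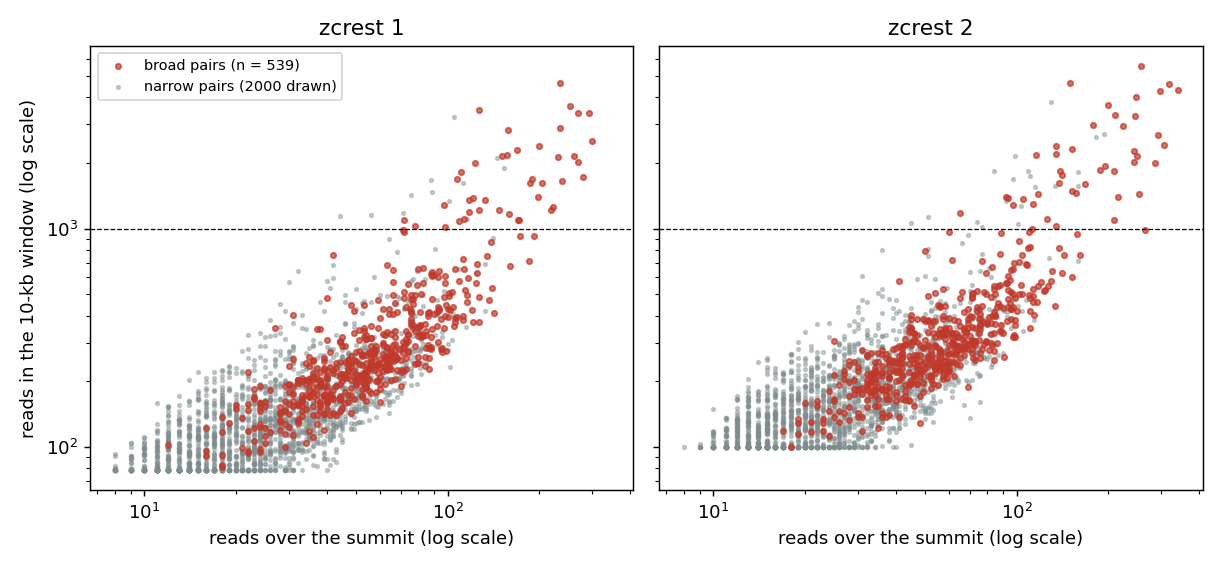
Reads over the summit (log scale) are plotted against reads in the 10000-bp window around it (log scale) for each line, with all 539 broad pairs in red and 2000 of the narrow pairs, drawn at random, in grey; the dashed line marks 1000 reads. Most broad pairs lie to the right of and above the bulk of the narrow pairs in both panels. Narrow pairs also lie above the dashed line, where the broad pairs reach 4633 reads in zcrest 1 and 5545 in zcrest 2.

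Relative to region length, broad summits lay near an edge more often than narrow summits. They were mostly on the same side in both lines. The summit lay within 25% of the region's length from an edge in 206 members in zcrest 1 (38.2%, interval 34.1% to 42.5%) and in 199 in zcrest 2 (36.9%, 32.8% to 41.1%), against 15.9% and 17.2% of narrow pairs. Most broad summits in both lines thus still lay in the inner part, further than 25% of the length from either edge. In 131 members (24.3%, interval 20.7% to 28.2%) it lay near the same edge in both lines, against 4.35% of narrow pairs. Both summits were on the same side of the midpoint in 450 of 539 broad pairs (83.5%, interval 80.1% to 86.5%), against 61.6% of narrow pairs (61.1% to 62.1%) and 62.1% of all pairs. With 40 to 60 summit reads on average the gap was smaller, at 82.4% (76.1% to 87.7%) and 72.4% (71.0% to 73.7%). The share was higher in broad pairs in every class from 20 reads up, but the intervals overlapped from 80 reads up. Of the members, 266 in zcrest 1 and 267 in zcrest 2 had the summit on the lower-coordinate side, so neither side was favoured. The position of the summit along the region correlated between the lines with a Spearman rho of 0.70 over broad pairs and 0.30 over narrow pairs. Counted in bases, broad summits lay farther from the nearer edge, at a median of 353 bp in zcrest 1 and 362 bp in zcrest 2. In narrow pairs the medians were 163 and 157 bp. The outer 25% of a narrow region covers fewer bases, and a shift of a given number of bases crosses its midpoint more easily. These shares are therefore not on an equal scale.

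**Figure D3:**
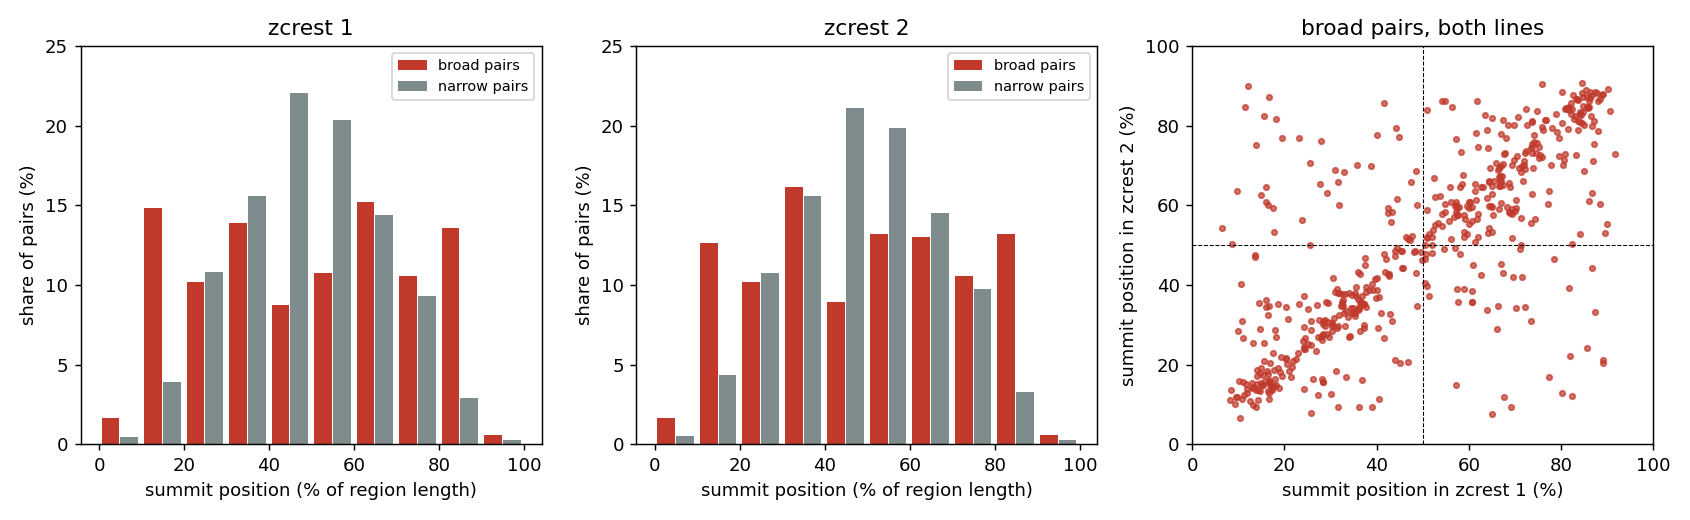
The left and middle panels give the share of pairs (%) whose summit fell in each of 10 equal bins along the region, for broad (red) and narrow (grey) pairs in each line, and the right panel plots the summit position (% of region length) in zcrest 1 against that in zcrest 2 for the 539 broad pairs, with dashed lines at the midpoints. Narrow pairs peak in the middle bins at 22.0% and 21.1%. Broad pairs are spread more evenly over the inner bins, with 1.67% in the first bin and 0.557% in the last in each line. Most broad pairs follow the diagonal.

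In bases, the distance from the summit to the nearer edge had a pair of preferred values. In bins of 50 bp, the fullest bins of the broad pairs were 150 to 200 bp, with 91 members in zcrest 1 and 78 in zcrest 2, and 350 to 400 bp, with 82 and 75. The bin of 200 to 250 bp between them held only 40 and 44. Under 100 bp lay 3 members in zcrest 1 and 1 in zcrest 2. The narrow pairs of at least 700 bp in both lines, a group picked after the values were seen, had the same first peak, with 569 and 587 of 2302 pairs at 150 to 200 bp and 232 and 257 at 200 to 250 bp. They also had a second rise, with 446 and 398 pairs at 300 to 350 bp and 404 and 394 at 350 to 400 bp. The first peak was thus not confined to regions past the limit. The distance to the nearer edge cannot reach past the middle of a region, so central summits of these narrower regions collect near the second rise. This group therefore cannot show whether the second peak of the broad pairs is shared. The summit reads and window reads used throughout rest on the assumption that the peak caller counted each read over 200 bp and took its local background over 10000 bp, which the sources used here do not state. Above the genome-wide minimum the solved backgrounds were whole numbers of reads under this assumption in all regions but 1, and the part of the 200 bp in these distances was not tested.

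**Figure D4:**
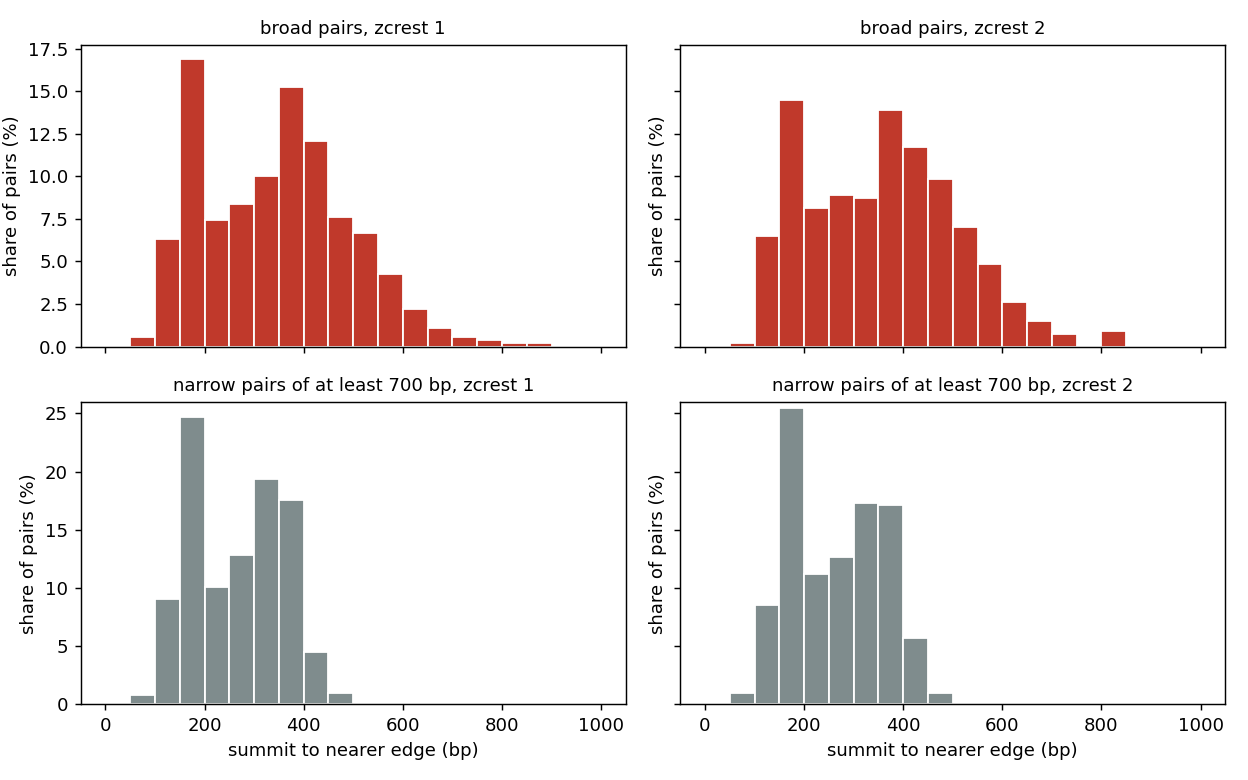
Each panel gives the share of pairs (%) by the distance from the summit to the nearer edge of its region, in bins of 50 bp, for broad pairs (upper row) and narrow pairs of at least 700 bp (lower row) in each line. Both lines show a high bin at 150 to 200 bp and lower bins from 200 to 300 bp in both rows, and a second rise at 350 to 450 bp in broad pairs and at 300 to 400 bp in the narrow pairs.

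Summits of the same broad region mostly coincided, with a long tail of displaced ones. The median distance between the summits of the lines was 22 bp in broad pairs, against 32 bp in narrow pairs, and 48.6% of broad pairs (262, interval 44.3% to 52.9%) had summits within 20 bp, against 39.0% of narrow pairs. Within 100 bp lay 404 broad pairs (74.95%, interval 71.1% to 78.6%), against 77.3% of narrow pairs (76.8% to 77.8%) and 77.1% of all pairs, so at this distance the members were close to the background. More than 400 bp apart lay 45 broad pairs (8.35%, interval 6.15% to 11.0%), against 0.871% of narrow pairs and 1.2% of all pairs. Narrow pairs have less room for such a distance.

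At a similar number of reads, summits within 100 bp were less frequent in broad pairs. With a mean of 20 to 40 summit reads the share was 65.3% of 118 broad pairs (interval 55.9% to 73.8%) and 80.4% of 14064 narrow pairs (79.7% to 81.0%). With 40 to 60 reads it was 75.3% of 182 (68.3% to 81.4%) and 88.4% of 4190 (87.4% to 89.4%). With 60 to 80 reads it was 84.5% of 110 (76.4% to 90.7%) and 90.6% of 1275 (88.9% to 92.1%), intervals that overlapped. With 80 to 120 reads it was 74.1% of 85 (63.5% to 83.0%) and 92.1% of 495 (89.4% to 94.3%). The share was lower in broad pairs in all 5 classes from 20 reads up, and the intervals also overlapped from 120 reads up. These classes do not match width, and a wide region leaves more room for displaced summits.

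Regions with displaced summits kept their edges. In the 45 broad pairs with summits more than 400 bp apart the overlap was a median of 94.1% of the joint length, against 93.6% in the 404 with summits within 100 bp, and both edges differed by a median of 28 bp. In 43 of the 45 the summits were on opposite sides of the midpoint. At median widths of 1239 bp in zcrest 1 and 1183 bp in zcrest 2, one side leaves little room for such a distance. This count is therefore largely set by the choice of the 45. The fold enrichment of the 45 was lower, at a median of 6.76 in zcrest 1 and 6.38 in zcrest 2, against 9.20 and 8.59 in the 404. The most displaced, picked after their values were seen, was on chromosome 8 at 39564816 to 39566231, where the summits lay 995 bp apart, at 89.2% of the region's length in zcrest 1 and 20.3% in zcrest 2. The starts of that region differed by 19 bp between the lines and the ends by 22 bp.

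The lines differed less in summit reads at broad pairs than at narrow pairs. Summit reads of zcrest 1 were divided by those of zcrest 2, and the ratio was set against its median over all pairs, 0.944. After this centring the median broad pair differed by 1.26-fold in either direction, and the median narrow pair by 1.38-fold. More than 2-fold was reached by 34 of 539 broad pairs (6.31%, interval 4.41% to 8.70%), against 16.3% of narrow pairs (15.9% to 16.7%) and 16.3% of all pairs. Of the 34, 17 were higher in zcrest 1 (3.15%, against 9.98% of all pairs) and 17 were lower in zcrest 1 (3.15%, against 6.29%). Among pairs with 40 to 60 summit reads on average, 7.14% of broad pairs (3.86% to 11.9%) and 19.2% of narrow pairs (18.1% to 20.5%) passed 2-fold. With 80 to 120 reads the shares were 5.88% (1.94% to 13.2%) and 7.88% (5.66% to 10.6%), intervals that overlapped. The rule leaves out pairs that were narrow in the weaker line, so a smaller spread is partly built into the members. By fold enrichment, 2 members passed 2-fold (0.371%, against 4.9% of all pairs).

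The members with the highest ratio included 3 of a short stretch of chromosome 3. The highest of all was on chromosome 17 at 1105957 to 1106973, with 93 summit reads in zcrest 1 and 17 in zcrest 2, a centred log2 ratio of 2.53, and nearly the same width (1017 and 1097 bp). Next came members on chromosome 3 at 50663414 to 50664893, with 172 and 37 reads (log2 ratio 2.30), and at 50787117 to 50788565, with 171 and 44 (2.04). A member on chromosome 2 at 21152134 to 21153446 had 121 and 35 reads, and one on chromosome 3 at 50606374 to 50608223 had 159 and 46 (1.87 for each). The 3 members of chromosome 3 lay within 200 kb of each other and were wide in both lines, with 1480, 1449 and 1850 bp in zcrest 1 and 1191, 1168 and 1761 bp in zcrest 2. Their windows held 1094, 1091 and 1163 reads in zcrest 1 and 137, 162 and 242 in zcrest 2. Against these backgrounds their fold enrichment was lower in zcrest 1 (7.56, 7.54 and 6.60) than in zcrest 2 (10.2, 10.6 and 8.05), the opposite direction to the summit reads. The member on chromosome 2 did the same. Its window held 1381 reads in zcrest 1 and 271 in zcrest 2, and its fold enrichment was 4.26 and 5.61. At the member on chromosome 17 the fold enrichment followed the summit reads, with 13.3 in zcrest 1 and 5.33 in zcrest 2.

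The lowest ratios were smaller in size and lay on 5 chromosomes. The lowest was on chromosome 8 at 14217392 to 14218489, with 12 summit reads in zcrest 1, the fewest of any member, and 40 in zcrest 2 (log2 ratio -1.65). Its width was 1098 bp in zcrest 1 and 1207 bp in zcrest 2. The member on chromosome 19 at 39815818 to 39816848 had 35 and 111 reads (-1.58) in regions of 1031 and 1069 bp. It ranked 14803 by -log10 q in zcrest 1 and 237 in zcrest 2, while the narrow pairs in its 5-Mb window had a median log2 ratio of 0.22. Members on chromosome 24 at 40753001, chromosome 18 at 45315022 and chromosome 1 at 22262358 followed, with log2 ratios of -1.24, -1.19 and -1.18. The narrow pairs in their windows had medians of 0.08, -0.32 and -0.12. In the window of the member on chromosome 8 the median was -0.33. At each of these 5 members the width differed by at most 1.29-fold between the lines, less than the summit reads did.

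Differences between the lines at broad pairs mostly ran the same way as at narrow pairs of the same chromosome. Over the 21 chromosomes with at least 10 broad pairs, the median log2 ratio of the broad pairs and that of the narrow pairs had the same sign on 19, with a Pearson correlation of 0.91 and a Spearman correlation of 0.94 across chromosomes. These points share both libraries, so the correlation is a description. On chromosome 12 the medians were -0.50 for broad and -0.53 for narrow pairs, on chromosome 18 -0.48 and -0.36, on chromosome 16 0.39 and 0.55, and on chromosome 19 0.38 and 0.46. In windows of 5 Mb with at least 20 narrow pairs, the ratio of a broad pair and the median of its narrow neighbours had a Spearman correlation of 0.65 over 535 members in 207 windows. Of the 101 members in windows whose narrow pairs lay past a log2 ratio of 0.5 in either direction, 92 (91.1%) were on the same side. Among members past 2-fold, 15 of the 17 higher in zcrest 1 and 12 of the 17 lower in zcrest 1 were on the side of their window. When each member was centred on the narrow pairs of its window, 18 of 535 members passed 2-fold in place of 34. This setting was added after the data were seen. Of the 34, 8 of the 17 higher in zcrest 1 and 7 of the 17 lower stayed past 2-fold. The 18 thus include members that were not past it before. The interquartile range of the log2 ratio was 0.44 in place of 0.66. In narrow pairs the same step left 3904 (12.6%) past 2-fold, against 3.36% of broad pairs, and gave an interquartile range of 0.78 in place of 0.94.

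**Figure D5:**
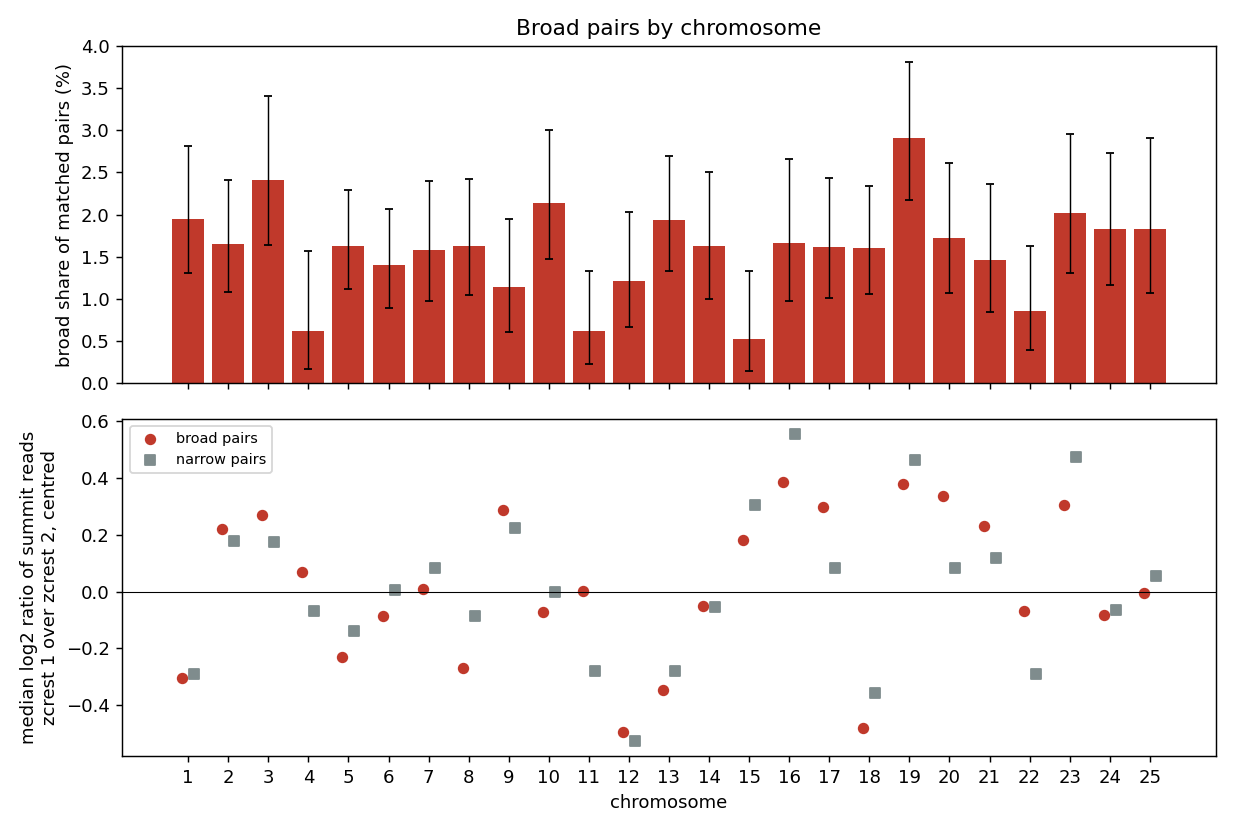
The upper panel gives broad pairs as a share (%) of all matched pairs on each chromosome with 95% exact binomial intervals, and the lower panel the median centred log2 ratio of summit reads, zcrest 1 over zcrest 2, of broad (red circles) and narrow (grey squares) pairs. Chromosome 19 has the highest share at 2.91%, and the medians of the 2 classes lie close together on most chromosomes.

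Broad pairs were found on every numbered chromosome. Chromosome 19 held the most, 51 of 1752 matched pairs (2.91%, interval 2.17% to 3.81%), or 10.2 per 10 Mb of the length spanned by regions. Chromosome 3 followed in share with 31 of 1287 (2.41%) and chromosome 10 with 32 of 1495 (2.14%). The lowest shares were on chromosome 15 with 4 of 769 (0.520%, interval 0.142% to 1.33%), chromosome 11 with 6 of 979 (0.613%) and chromosome 4 with 4 of 651 (0.614%). Chromosomes 4 and 15 also had the fewest matched pairs per Mb, 10.5 and 16.2, where chromosome 19 had the most, 34.9. The intervals of chromosomes 19 and 15 did not overlap. These were picked as the highest and the lowest share, so this gap is no test of a difference between chromosomes.

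Broad regions stood somewhat apart from other open regions. The nearest other region of the same list was a median of 8.25 kb away in zcrest 1 and 8.71 kb in zcrest 2, against 5.96 and 6.85 kb for narrow pairs. Within 5000 bp lay another region for 31.5% of members in zcrest 1 (interval 27.6% to 35.6%) and 29.9% in zcrest 2 (26.0% to 33.9%), against 44.0% and 39.9% of narrow pairs. Neighbours close enough to be joined become part of a wide region, so a larger distance is partly built into the rule. Over 50 kb on each side the surroundings were alike, with a median of 5 other regions in zcrest 1 and 5 in zcrest 2 around broad pairs, against 5 and 4 around narrow pairs. The most isolated member, on chromosome 4 at 53048652 to 53049812, had no other region of either line within 45.4 kb, and its summit held 79 reads in zcrest 1 and 59 in zcrest 2. Members on chromosome 14 at 7763451 and chromosome 12 at 18491010 followed, with 42.7 and 41.0 kb to the nearest region.

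Of 539 members, 26 (4.82%, interval 3.17% to 6.99%) had another member within 12500 bp. The same share is not given here for narrow or all pairs. Whether members lay closer together or further apart than those was not tested. The 26 members formed 12 runs, of which the largest held 3 members. Chromosome 13 held both runs of 3, at 19210778 to 19222451 and at 15449587 to 15466495. The median window around the members of these runs held 2151 and 1692 reads in zcrest 1 and 2945 and 2207 in zcrest 2. The other 10 were runs of 2 and covered a wide range, from 192 to 3389 reads in zcrest 1 and from 446 to 4286.5 in zcrest 2. The median window of the run held at least 1000 reads in both lines at 8 of the 12 runs. The run on chromosome 5 at 1192129 to 1202212 had medians of 928 and 983.5 reads. It still held a dense member, with 1096 reads in zcrest 1 and 1176 in zcrest 2. The run with the fewest reads, on chromosome 18 at 8048324 to 8061819, had 192 in zcrest 1, below the median of all members, and 446 in zcrest 2, above it. Of the 37 members in dense windows, 17 lay in such runs, against 9 of the other 502. Reads of a neighbouring member can fall inside the window that makes a member dense, so this contrast is partly built in. The run of 2 with the most reads in its window, on chromosome 14 at 21106224 to 21109956, held the highest member summit of zcrest 2, 340 reads, where zcrest 1 had 292.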

How the data were processed

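ATAC-seq was done on 50000 cells of each line. The authors called peaks with MACS2 2.1.0 on build Zv9, per the submitters' processing notes, and peak names show 1 list per library. Sources used here do not give the aligner, the read shift or how duplicates were handled. The deposited columns were a fold enrichment (ratio), a -log10 p, a -log10 q, a summit offset, and a score equal to 10 times the -log10 q with decimals dropped, in all peaks but 1. The lowest -log10 q was 1.31 and 1.32.

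Summit reads and local background were solved from the deposited fold enrichment and -log10 p, assuming 200-bp reads and a 10000-bp window, settings that the sources used here do not give, trying whole pileups up to 800. All peaks were solved within 0.001. Apart from peaks at the genome-wide minimum, backgrounds equalled whole numbers of 200-bp reads per 10000 bp (tolerance 0.02 reads, 1 exception). Scripts were tested on simulated lists. Python 3.11.15, numpy 2.4.6, scipy 1.17.1 and pandas 2.3.3 were used.

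Named regions follow a rule: 5 widest by the narrower width, 5 strongest, 5 highest and 5 lowest ratios, 3 at each end of the width ratio, 5 on each side of the limit, the runs with most members (10 runs tied at 2, so beside the runs of 3 only those of fewest and most window reads are named, picked after their values were seen), 3 most isolated. Members, rules and lists were chosen with earlier results of these data known.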

Additional observations from a re-analysis of the deposited data

How the results depend on the processing

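The 539 broad pairs were 564 with a reciprocal overlap of 50%, 543 and 525 with a -log10 q of at least 5 and 10, and 761 by mean width, but 1891 at 800 bp and 30 at 1500 bp. The correlation of widths, 0.62, was 0.59 at 800 bp and 0.82 at 1500 bp. The share with summits within 100 bp stayed between 73.2% and 76.7% under the 5 settings tried. The share past 2-fold, 6.31%, was 0.371% by the deposited fold enrichment and 3.36% with window centring, and 5.62% to 8.62% under the other 4 settings. The share with another member nearby, 4.82%, was 2.60% within 5 kb, 9.83% within 50 kb and 3.29% without windows of raised background. Window centring, and leaving out raised windows for summits and ratios, were chosen after seeing the data. The planned comparison with gene starts was not run. No paired analysis was possible because each line had 1 library, and none could be left out. Reads beyond the called regions were not used, so a missing wide counterpart does not show closed chromatin.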
